A study of Mus musculus with 28 samples.

Results

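In the 4 mouse Hox clusters 38 genes were examined for 2 histone acetylation marks in lung adenocarcinoma cells of 4 groups. They were taken as the protein-coding genes named Hoxa, Hoxb, Hoxc or Hoxd with a number, out of 21879 protein-coding genes on chromosomes in RefSeq GRCm38.p6, which is the mm10 build of the peak lists. HoxA holds 10 of them on chr6:52162417-52260880, HoxB 10 on chr11:96194316-96368254, HoxC 9 on chr15:102921131-103036856 and HoxD 9 on chr2:74668225-74765142. Each of these spans was extended by 5 kb on both sides, which gave windows of 108, 184, 126 and 107 kb. Of the 447691 peaks used from 24 deposited lists, 12 lay in these windows.

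The groups were Res_shFabp7, cells of the resistant line with a short hairpin against Fabp7, which encodes a fatty acid binding protein; Res_Ctrl, the same line with the genotype given as control; Res, the resistant line with wild-type genotype, described as treated with PD-1 inhibitors; and Sen, the line called PD-1-sensitive, also wild-type. All were cultured in RPMI-1640 medium, and each had 3 biological replicates for H3K27ac and 3 for H3K9ac, with 1 input library that was not used here. The labels do not say whether a line is 1 clone or whether its replicates were separate cultures, so that p-values measure the spread between these libraries. The Res libraries thus differ from Res_Ctrl in genotype label and in the stated treatment together, and these cannot be told apart.

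Hox genes encode homeodomain transcription factors that set position along the body axis, and neighbouring genes of a cluster are switched on in order of their place in it. Where they are silent, Polycomb complexes cover whole clusters with methylated histone H3; retinoic acid and proteins of the trithorax type switch them on. H3K27ac, acetylation of a lysine that Polycomb would otherwise methylate, marks active promoters and enhancers, and H3K9ac marks active promoters. In adult tissues the set of active Hox genes records where a cell came from, and in lung the HoxA and HoxB clusters are the ones best known to be active.

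The clusters also hold microRNA genes, whose mature sequences are shown because they group by seed, the bases 2 to 8 that pair with a target, printed in capitals. They are from RefSeq (GRCm38.p6), 5′ to 3′.
mmu-miR-10a-5p: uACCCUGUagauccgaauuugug
mmu-miR-10b-5p: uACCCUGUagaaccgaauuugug
mmu-miR-196a-5p: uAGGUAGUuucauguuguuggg
mmu-miR-196b-5p: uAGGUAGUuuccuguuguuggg
The miR-10 pair shares one seed and differs by U12A, and the miR-196 pair shares another and differs by A12C, counted from 1 at the 5′ end. Mir10a (chr11:96317165-96317274) and Mir196a-1 (chr11:96265164-96265265) lie in HoxB, Mir196b (chr6:52230081-52230165) in HoxA, Mir196a-2 (chr15:102973350-102973434) and Mir615 (chr15:103014910-103015001) in HoxC, and Mir10b (chr2:74726070-74726137) in HoxD. None of these 6 genes had a peak of either mark within 1 kb in any of the 24 libraries. The homeobox genes Evx1 and Evx2, which sit beside HoxA and HoxD, had none either.

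The 24 lists held 11771 to 28934 peaks with 2.24 to 11.5 M tags in peaks (M, 1e6), tags being the reads counted within a called peak. Every listed peak has a score of at least 50.0; the score was read as −10 log10 of the caller's p-value, so that 50 stands for 1e-05. A peak that is missing from a list had too few tags over input to be called, and its tags are unknown. Fabp7 itself had no peak of either mark within 1 kb in any of the 24 libraries, so these lists do not check the knockdown. Cell type markers were counted by any peak in the gene or within 1 kb of it, and such a peak may belong to a neighbouring gene. Of the markers of lung epithelium, Sftpc, Foxa1, Foxa2 and Gata6 had peaks in all 12 libraries of each mark, while Nkx2-1, the defining transcription factor of lung epithelium, and Sftpa1 had none. Sftpb, a surfactant protein gene, had H3K27ac peaks in 3 of 3 Res_shFabp7, 1 of 3 Res_Ctrl, 0 of 3 Res and 2 of 3 Sen libraries and no H3K9ac peak, and its part in the Hox peaks of Res was not tested. Cdh1, Krt7, Krt8, Krt18 and Krt19 of epithelium had peaks in 12 of 12 libraries of each mark, and Epcam in 1 of 12 H3K27ac and 4 of 12 H3K9ac libraries. Of the immune markers only Cd68 had peaks, in all libraries, and Ptprc, Cd3e, Itgam and Adgre1 had none.

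These Hox genes were nearly free of both marks. Outside the Res group, 0 of 38 Hox genes had a peak in the gene or within 1 kb of it in any of the 18 Res_shFabp7, Res_Ctrl and Sen libraries. In the Res libraries, 0 to 2 of the 38 had an H3K27ac peak and 0 to 3 an H3K9ac peak, which is 0 to 5.26% and 0 to 7.89% of them. Across all 24 libraries, 47.1 to 57.0% of protein-coding genes had an H3K27ac peak and 47.5 to 54.3% an H3K9ac peak. In all, 35 of 38 Hox genes (92.1%) had no peak of either mark in any library, against 8687 of 21879 protein-coding genes (39.7%). At the other end, 0 of the 38 had peaks in all 24 libraries, against 9078 protein-coding genes (41.5%). These shares are a description, since the genes of a cluster share their surroundings and are not independent.

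**Figure D1:**
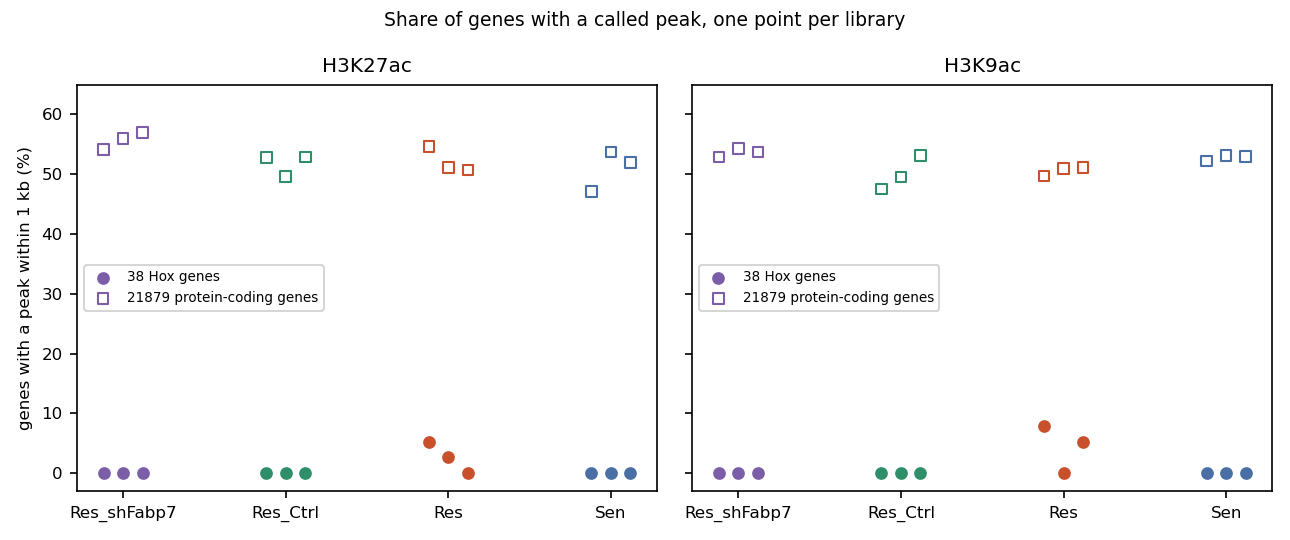
Percent of genes with a called peak within 1 kb (vertical axis) in each library of 4 groups (horizontal axis), H3K27ac left and H3K9ac right; filled circles are the 38 Hox genes and open squares the 21879 protein-coding genes. The Hox points lie at 0 outside Res and between 0 and 7.89% in Res, while the squares lie between 47.1 and 57.0%.

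HoxC and HoxD had no peak in any of the 24 lists. Their 18 genes include Hoxc8 to Hoxc13 and Hoxd8 to Hoxd13, the members of posterior identity that pattern trunk, limb and genital structures, and Hoxc4 to Hoxc6, Hoxd1, Hoxd3 and Hoxd4 of more anterior identity. In HoxA the 8 genes described other than Hoxa3 and Hoxa10 had no peak within 1 kb, and these include Hoxa5, which is needed for lung development in mice, and Hoxa9. In HoxB the same held for the 9 genes other than Hoxb6, among them Hoxb5, known from branching of the lung. The widening of the search to 2500 bases raised the number of Hox genes with a peak from the 3 named here to 6, through the neighbours Hoxa6, Hoxa11 and Hoxb7, and again through Res peaks alone.

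The peaks at these genes were weak, with scores of 52.87 to 97.61, and 4 of the 24 libraries held them. Among their own lists they ranked low: 2.13 to 17.8% of the peaks of the same H3K27ac list, and 1.06 to 13.9% of the H3K9ac list, had a lower score. Hoxa3, a gene of the pharyngeal region in the embryo, had 4 H3K27ac peaks and 1 H3K9ac peak, all in Res replicate 1. The Res lists of replicates 1, 2 and 3 held 7.35, 5.33 and 5.08 M tags in H3K27ac peaks. In H3K9ac they held 3.02, 3.6 and 3.89 M, so replicate 1 was highest in H3K27ac and lowest in H3K9ac. The part of depth in these peaks was not tested. The 3 H3K27ac peaks inside its annotated span, at chr6:52177065-52178313, chr6:52178417-52180428 and chr6:52182634-52184043, held 74, 111 and 91 tags. The peak near its high-coordinate end, chr6:52210884-52212184, held 81 H3K27ac tags and 51 H3K9ac tags and overlapped the antisense gene Hoxaas3. Hoxa10, a regulator of uterine development and of blood cells, had H3K9ac peaks within chr6:52239185-52240710 with 52 tags in Res replicate 1 and 87 in Res replicate 3, and no H3K27ac peak.

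Hoxb6, an axial patterning gene in the middle of HoxB, had peaks within chr11:96291451-96294290, over its low-coordinate end and Hoxb5os. Its H3K27ac tags were 109 in Res replicate 1 and 88 in Res replicate 2, with no peak in replicate 3. In H3K9ac it had 56 tags in Res replicate 1 and peaks of 67 and 88 tags in Res replicate 3, with none in replicate 2. Only Res replicate 1 had a Hoxb6 peak in both marks. None of these sites thus recurred in all 3 Res libraries of a mark, and Hoxb6 was the only one of the 38 genes found in 2 of 3 libraries of both.

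**Figure D2:**
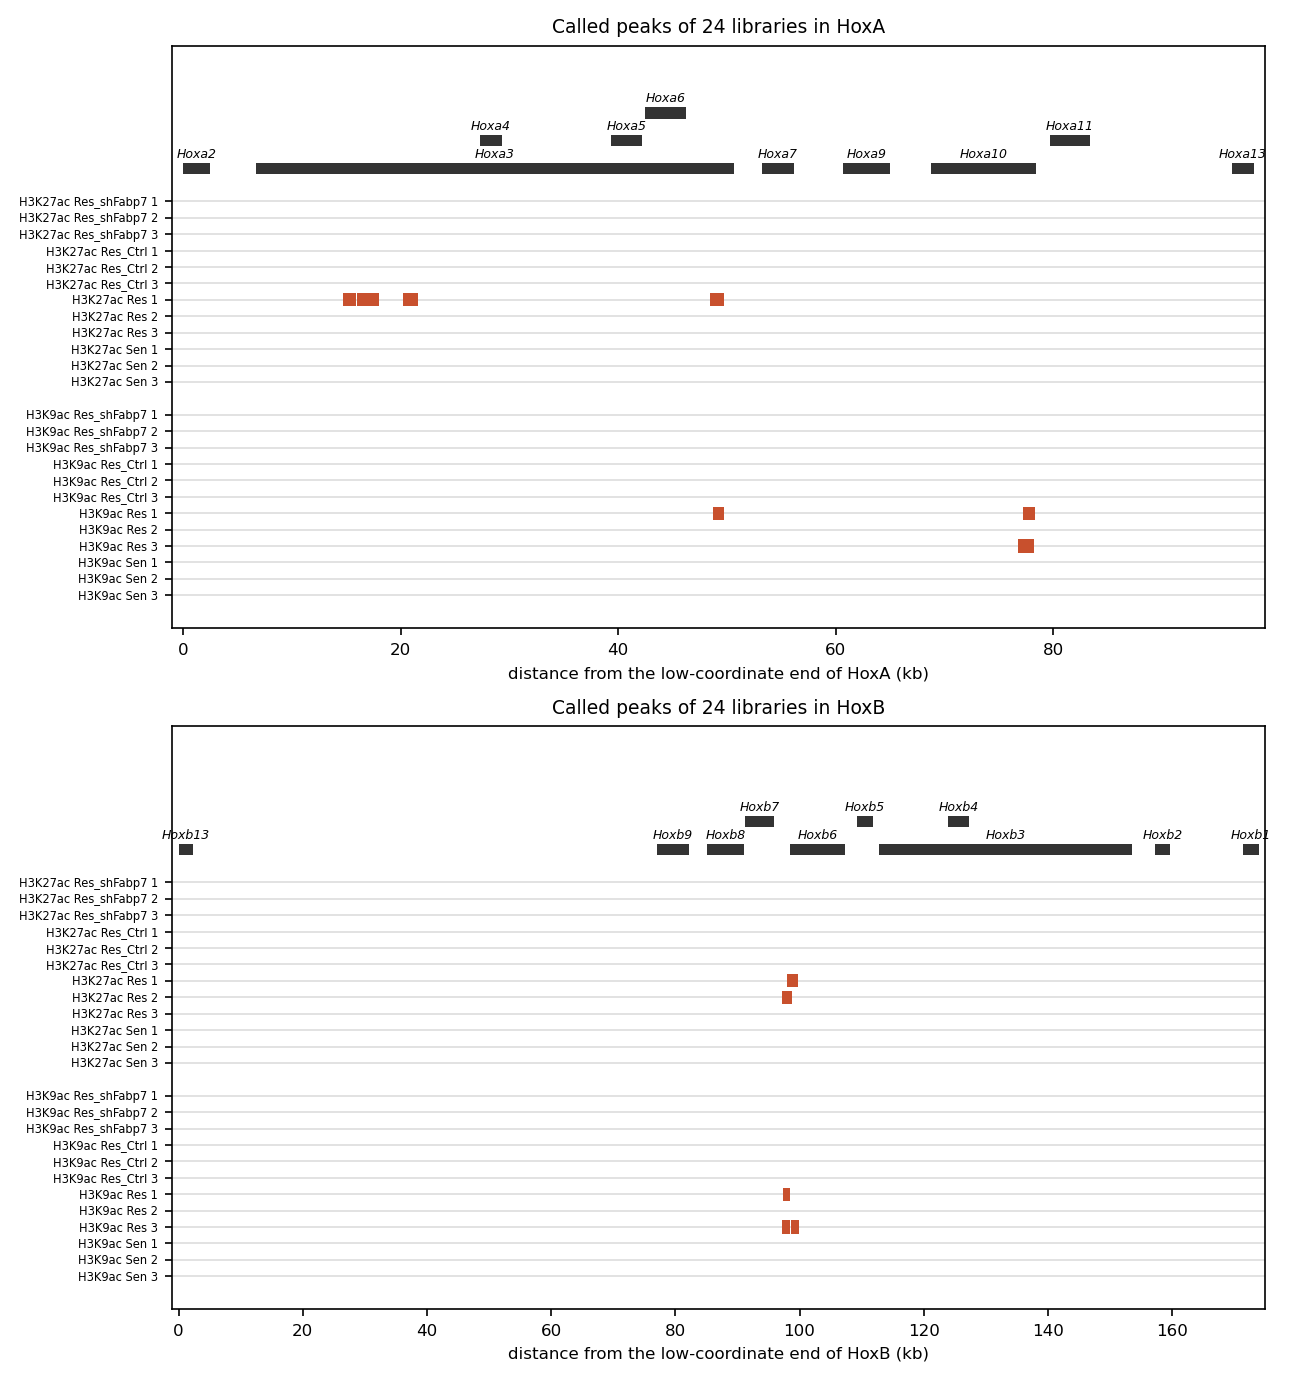
Called peaks (orange bars) along the HoxA and HoxB genes described, with distance from the low-coordinate end of the first of them in kb on the horizontal axis, genes in black above and 1 line per library. Only Res lines hold peaks: Res replicates 1 and 2 for H3K27ac, and Res replicates 1 and 3 for H3K9ac.

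Counted over the spans of the genes described, Res libraries 1, 2 and 3 had 5972, 0 and 0 bases of HoxA under H3K27ac peaks and 2139, 0 and 1452 under H3K9ac peaks, and all Sen libraries had 0. HoxA averaged 1990 ± 3450 bases in Res and 0 in Sen for H3K27ac, and 1200 ± 1090 bases in Res and 0 in Sen for H3K9ac (SD, n = 3 each). The two-sided exact permutation test gave p = 1 for H3K27ac and 0.4 for H3K9ac, where 0.1 is the smallest that 3 against 3 libraries allow. HoxB averaged 1150 ± 1010 bases in Res and 0 in Sen for H3K27ac, and 1230 ± 1290 bases in Res and 0 in Sen for H3K9ac, with exact permutation p = 0.4 for each (n = 3 each). After Benjamini-Hochberg adjustment over the 16 values of this kind all were at 1; with 3 libraries a group and all Sen libraries at 0, these tests could not pass 0.05 and do not show that the groups were alike. Without Res replicate 1 the H3K27ac difference in HoxA was 0, since that library held all 4 of these peaks, and the H3K9ac difference was 726 bases. The other 12 values, HoxC and HoxD in Res against Sen and all 4 clusters in Res_shFabp7 against Res_Ctrl, were 0 in both groups.

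To set the Hox sites beside the whole genome, overlapping peaks of the 6 libraries of a comparison were merged into regions, and a region was called gained with peaks in 3 of 3 libraries of the group named first and 0 of 3 of the other, and lost in the opposite case. In Res against Sen, 0 of 5 regions at these Hox genes were gained in H3K27ac and 0 of 4 in H3K9ac, where 5.89% of 27870 regions and 2.22% of 18304 regions were gained genome-wide. In Res_Ctrl against Res, 0 of 5 and 0 of 4 were lost, where 5.09% of 27408 and 1.97% of 17338 regions were lost. These 2 comparisons share the Res libraries. Without Res replicate 3, 1 H3K27ac region, at Hoxb6, met the rule in each of them, and without Res replicate 2, 2 H3K9ac regions did, at Hoxa10 and Hoxb6. No Hox region existed in Res_shFabp7 against Res_Ctrl, where 4.04% of 29992 H3K27ac regions and 4.89% of 19259 H3K9ac regions were gained or lost, nor in Res_Ctrl against Sen, where 3.22% of 26592 and 5.49% of 18212 were. No Hox region had a peak in all 6 libraries of any comparison, so that none entered the edgeR test of tags and no fold change is given.

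How far the other lists held peaks as weak as these depended on whether tags were scaled to the total in peaks. The weakest Hox peak in Res held 74 H3K27ac tags and 51 H3K9ac tags. In the 9 H3K27ac lists outside Res, at least 8.12% of the peaks of each list had 74 tags or fewer. In the 9 H3K9ac lists outside Res, 0 to 3.75% had 51 tags or fewer, with none in Sen replicates 2 and 3, whose lowest peaks held 72 and 60 tags. Per 1e6 tags in peaks, those weakest Hox peaks stood at 10.1 in H3K27ac and 16.9 in H3K9ac. As few or fewer were held by 0 to 19.7% of peaks in the H3K27ac lists outside Res, with none in Sen replicate 1, and by 0 to 19.4% in the H3K9ac lists, with none in Res_Ctrl replicate 1 and 9.26 and 8.42% in Sen replicates 2 and 3. With a score of at least 100, or with equal numbers of peaks per list, none of these Hox peaks remained.

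Markers of fibroblasts, which are Hox-expressing cells in many organs, moved with Res in part. Col1a2 had an H3K27ac peak in 3 of 3 Res libraries and 0 of 9 others, but no H3K9ac peak in any library. Pdgfra had H3K9ac peaks in 3 of 3 Res libraries and 1 of 3 Sen libraries, and an H3K27ac peak in 1 Res library only. Dcn had an H3K27ac peak in 1 Res library, and Pdgfrb had no peak in any. Col1a1 had peaks in 11 of 12 H3K27ac and 8 of 12 H3K9ac libraries. Its H3K9ac peaks were in 3 of 3 Res_shFabp7, 1 of 3 Res_Ctrl, 3 of 3 Res and 1 of 3 Sen libraries. Of the endothelial markers, Pecam1, Kdr and Tie1 had none, and Cdh5 had peaks in 11 and 5 libraries. Fewer cells with a mark and less of the mark per cell cannot be told apart in bulk libraries, and the part of these markers in the Hox peaks of Res was not tested.

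Around the clusters the peak-free stretches were long. In the 18 libraries outside Res no peak lay within 148 kb before or 317 kb after HoxA, and the whole stretch of 563 kb, which also holds Evx1, ended near Hibadh. The stretch at HoxB was 604 kb, from 52.1 kb before the cluster, near Ttll6, to 378 kb after it, near Skap1. At HoxC it was 341 kb, with 100.0 kb before and 125 kb after, near Smug1. At HoxD it was 245 kb, with 88.3 kb before, near Lnpk, and 59.8 kb after, near Mtx2, and it holds Evx2. Of the 8097 peak-free stretches longer than 50 kb in these 18 libraries, 108 to 138 held as many protein-coding genes as those at the Hox clusters.

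**Figure D3:**
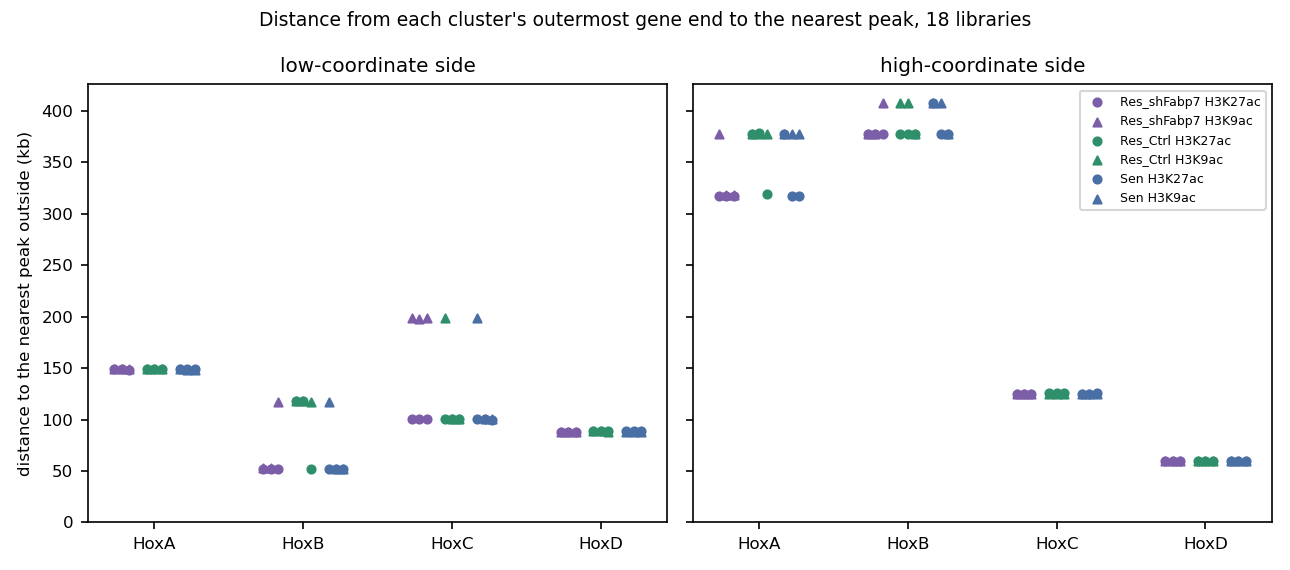
Distance in kb (vertical axis) from the outermost gene end of the genes described in each Hox cluster (horizontal axis) to the nearest peak outside the cluster, on the low-coordinate side (left) and the high-coordinate side (right), with 1 point for each of the 18 libraries outside Res, circles for H3K27ac and triangles for H3K9ac. At HoxD the points of all groups lie between 88.3 and 89.0 kb on the left and between 59.8 and 60.1 kb on the right. None of these libraries has a flanking peak closer than 52.1 kb at any cluster.

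The Hox gene promoters at hand, mostly of HoxA and HoxD, were not poor in CpG, the dinucleotide whose density goes with acetylated promoters. RefSeq promoter windows, 250 bases before to 50 after a start, were at hand for 22 of 38 Hox genes (24 windows). They held a median of 14.5 CpG, against 13.0 in the 21262 windows of 17491 protein-coding genes. By a CpG ratio of at least 0.6 and a GC content of at least 55%, 9 of 22 Hox genes (40.9%) had a CpG-rich promoter, against 7665 of 17491 genes (43.8%). All of the 9 lay in HoxA or HoxD. HoxB was covered only by Hoxb1, Hoxb4 and Hoxb8 and HoxC only by Hoxc4, and none of those met the rule. A peak of either mark within 1 kb of the gene in any library was found for 2 of the 9 CpG-rich Hox genes (22.2%) and for 6761 of the 7665 genes (88.2%), and peaks in all 24 libraries for 0 and for 5362 (70.0%). None of the 24 Hox windows itself overlapped a peak. Shown first are Hoxa13 and Hoxd13, the windows richest in CpG of their clusters and without a peak in any library, then Hoxa3 and Hoxa10, which had Res peaks outside the window; CG is in capitals, and the search used that motif alone, which reads CG on both strands.
Hoxa13, chr6:52260831-52261130, minus strand: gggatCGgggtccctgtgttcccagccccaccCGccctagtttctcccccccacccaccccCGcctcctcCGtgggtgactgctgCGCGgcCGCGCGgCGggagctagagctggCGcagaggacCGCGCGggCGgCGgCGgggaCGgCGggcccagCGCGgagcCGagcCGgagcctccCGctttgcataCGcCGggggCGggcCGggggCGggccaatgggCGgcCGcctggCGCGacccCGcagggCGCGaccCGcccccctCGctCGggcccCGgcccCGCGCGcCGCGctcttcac
Hoxd13, chr2:74667975-74668274, plus strand: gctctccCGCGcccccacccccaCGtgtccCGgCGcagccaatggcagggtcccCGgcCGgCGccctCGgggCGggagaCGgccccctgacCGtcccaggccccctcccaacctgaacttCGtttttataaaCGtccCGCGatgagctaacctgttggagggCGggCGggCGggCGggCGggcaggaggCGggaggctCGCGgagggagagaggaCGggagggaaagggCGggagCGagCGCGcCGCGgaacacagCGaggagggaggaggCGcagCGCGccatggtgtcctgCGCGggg
Hoxa3, chr6:52213018-52213317, minus strand: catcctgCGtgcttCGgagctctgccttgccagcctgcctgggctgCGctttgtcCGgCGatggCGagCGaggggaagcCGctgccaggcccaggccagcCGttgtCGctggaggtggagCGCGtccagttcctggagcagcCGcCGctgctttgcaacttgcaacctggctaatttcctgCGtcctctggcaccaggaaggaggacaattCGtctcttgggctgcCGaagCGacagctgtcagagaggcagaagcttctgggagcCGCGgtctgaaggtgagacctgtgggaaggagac
Hoxa10, chr6:52240805-52241104, minus strand: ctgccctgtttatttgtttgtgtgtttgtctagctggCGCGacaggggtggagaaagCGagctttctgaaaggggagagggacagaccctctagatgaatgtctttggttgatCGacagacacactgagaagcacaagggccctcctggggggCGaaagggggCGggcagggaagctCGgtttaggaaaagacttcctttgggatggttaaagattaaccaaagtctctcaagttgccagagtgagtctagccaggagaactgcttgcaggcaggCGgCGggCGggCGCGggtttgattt
These windows hold 45, 37, 20 and 12 CpG. Of all promoters, 97.9% hold as few as or fewer than Hoxa13, 93.5% as few as Hoxd13, 66.4% as few as Hoxa3 and 49.1% as few as Hoxa10. The Hoxa10 peak in Res ended below this window at position 52240710, and the Hoxa3 peak at 52212184. The Hoxa10 window shown, with a CpG ratio of 0.596 and a GC content of 54.3%, does not meet the CpG-rich rule. A second Hoxa10 window, chr6:52234890-52235189, does, with a ratio of 0.853 and a GC content of 57.3%. It holds 21 CpG, and 68.7% of promoters hold as few or fewer.

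Most of the listed partners and regulators of the Hox genes had peaks of both marks in every library, but the share differed by role. A list of 47 genes was used, with the protein cofactors of Hox factors, the ParaHox genes and retinoic acid genes, Polycomb and trithorax proteins, and cohesin with CTCF. Of the 47, 35 (74.5%) had an H3K27ac peak in 12 of 12 libraries and 39 (83.0%) an H3K9ac peak in 12 of 12, where 43.4% and 45.7% of all 21879 protein-coding genes did. There were 5 with no peak at all, namely Pknox2, Cdx1, Cdx4, Rarb and Cyp26a1. All 16 Polycomb genes, which encode the writers and readers of the silent state, had peaks of both marks in at least 1 library, and all 10 trithorax-type genes had them in 12 of 12. H3K27ac peaks in 12 of 12 libraries were found at 4 of 8 cofactors and 4 of 9 ParaHox and retinoic acid genes. The same held for 13 of 16 Polycomb genes and 4 of 4 cohesin and CTCF genes. For H3K9ac these counts were 5 of 8, 4 of 9, 16 of 16 and 4 of 4.

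Meis1, a homeodomain cofactor that binds DNA with Hox proteins, had peaks of both marks in all 3 Res libraries and in no other. The gene (chr11:18880428-19019651) had at its high-coordinate end 408, 311 and 285 H3K27ac tags in Res replicates 1, 2 and 3, and 287, 341 and 365 H3K9ac tags. A further H3K27ac peak inside the gene held 342, 243 and 214 tags in the same libraries. No library of Res_shFabp7, Res_Ctrl or Sen had a peak of either mark at Meis1. Its scores at the end of the gene, 644.66 to 1033.15, were above those of every Hox peak named. Peaks in all 3 Res libraries and in none of the other 9 were uncommon, at 97 of 21879 genes (0.443%) for H3K27ac, at 65 (0.297%) for H3K9ac and at 30 (0.137%) for both marks. Of the fibroblast markers given above, only Col1a2 had this pattern, in H3K27ac and not in H3K9ac, and its part was not tested.

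**Figure D4:**
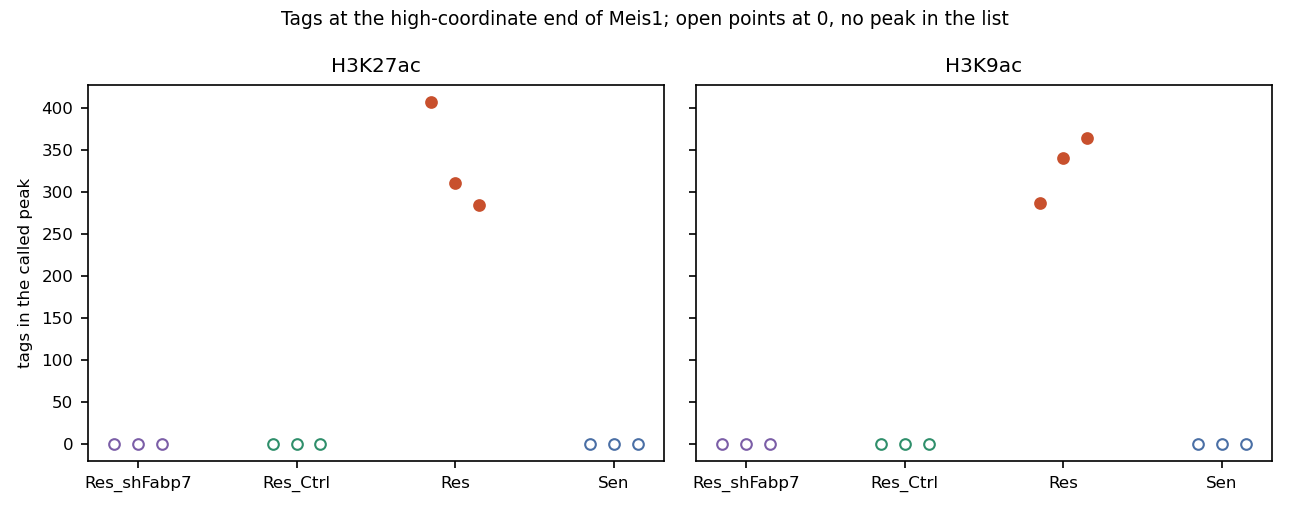
Tags in the called peak (vertical axis) at the high-coordinate end of Meis1 in each library, by group along the horizontal axis, H3K27ac left and H3K9ac right; open points at 0 have no peak in the list. Res libraries hold 285 to 408 tags, and no other library has a peak.

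Genes with a peak within 1 kb of an annotated end in all 6 libraries of a comparison were compared by their tags with edgeR's quasi-likelihood test with Benjamini-Hochberg adjustment over all regions. In Res against Sen, H3K27ac was higher at 7 and lower at 6 of 32 tested genes of the list, with a median log2 change of 0.06; over 8910 genes 14.8% were higher and 10.8% lower, with a median of -0.03. H3K9ac was higher at 13 and lower at 8 of 35, with a median of 0.03; over 9783 genes 27.7% were higher and 25.4% lower, with a median of -0.02. Among the cofactors 2 of 4 were higher in H3K27ac and 2 of 5 in H3K9ac, the same Meis2 and Pknox1 in both, and none was lower. Among the Polycomb genes 2 were higher and 3 lower of 12 in H3K27ac, and 6 higher and 3 lower of 14 in H3K9ac. Among the trithorax-type genes 2 were higher and 1 lower of 9 in H3K27ac, and 3 higher and 3 lower in H3K9ac.

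Meis2, a relative of Meis1, had 123, 115 and 133 normalised CPM (counts per 1e6 tags, TMM-scaled) of H3K27ac in Res libraries and 17.6, 57.0 and 36.4 in Sen libraries. Its region (chr2:116061639-116068284) changed by 1.69 ± 0.30 on the log2 scale (SE) with an edgeR adjusted p of 0.0030, and by 1.08 ± 0.06 in H3K9ac (adjusted p = 8.6e-08). The groups did not overlap in either mark. Psip1, which encodes LEDGF and tethers trithorax complexes to chromatin, had 149, 157 and 128 H3K27ac CPM in Res and 66.3, 59.9 and 62.2 in Sen. Its log2 changes were 1.21 ± 0.12 in H3K27ac (edgeR adjusted p = 0.00015) and 0.96 ± 0.07 in H3K9ac (5.8e-07), again with no overlap. Lower in H3K27ac were Cdx2, a ParaHox factor of the gut that acts on Hox genes, and Ezh2, the methyltransferase of the Polycomb complex PRC2. Cdx2 had 54.0, 65.7 and 59.5 H3K27ac CPM in Res and 104, 87.0 and 91.1 in Sen, a log2 change of -0.65 ± 0.13 (edgeR adjusted p = 0.0050). Ezh2 had 95.6, 99.1 and 99.8 H3K27ac CPM in Res and 164, 141 and 140.0 in Sen, a log2 change of -0.59 ± 0.10 (edgeR adjusted p = 0.0029). Both were also lower in H3K9ac, by -0.54 ± 0.10 and -0.52 ± 0.07. In H3K9ac Rarg, a retinoic acid receptor, had 84.9, 85.0 and 88.3 CPM in Res and 44.0, 43.9 and 45.1 in Sen, a log2 change of 0.96 ± 0.07 (edgeR adjusted p = 9.8e-07). Kdm6b, a demethylase that removes the Polycomb mark, changed by 0.58 ± 0.07 in H3K9ac (edgeR adjusted p = 3.2e-05), in a region it shares with Cyb5d1, Naa38 and Tmem88. In Res_Ctrl over Sen, which shares the Sen libraries with the comparison above, the H3K27ac log2 differences were 1.67 ± 0.30 at Meis2, 0.03 ± 0.12 at Psip1, -0.64 ± 0.13 at Cdx2 and -0.49 ± 0.11 at Ezh2 (SE, n = 3 each). The H3K9ac differences there were 1.13 ± 0.06 at Meis2, -0.04 ± 0.07 at Psip1, -0.43 ± 0.09 at Cdx2 and -0.40 ± 0.07 at Ezh2. At Rarg the H3K9ac difference was -0.16 ± 0.11 and at Kdm6b 0.09 ± 0.07.

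The list's count of higher H3K27ac genes in Res against Sen was 4 without Res replicate 1 and 3 without Res replicate 2, Sen replicate 2 or Sen replicate 3. That of lower genes was 2 without Res replicate 2, Res replicate 3 or Sen replicate 2. Calls over all genes fell in these settings as well. Higher genes went from 1317 of 8910 to 914 of 8892, 819 of 8965, 857 of 8898 and 810 of 8939, in the order given. Lower genes went from 964 of 8910 to 525 of 8965, 634 of 9018 and 519 of 8898. With tags divided by called bases the list's H3K27ac calls were lost, at 0 higher and 0 lower, and in H3K9ac 18 of 35 were higher and 0 lower. Over all genes that setting called 22 higher and 95 lower of 8910 in H3K27ac. In H3K9ac it called 5040 higher and 83 lower of 9783, so the 18 are near the share of all genes.

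**Figure D5:**
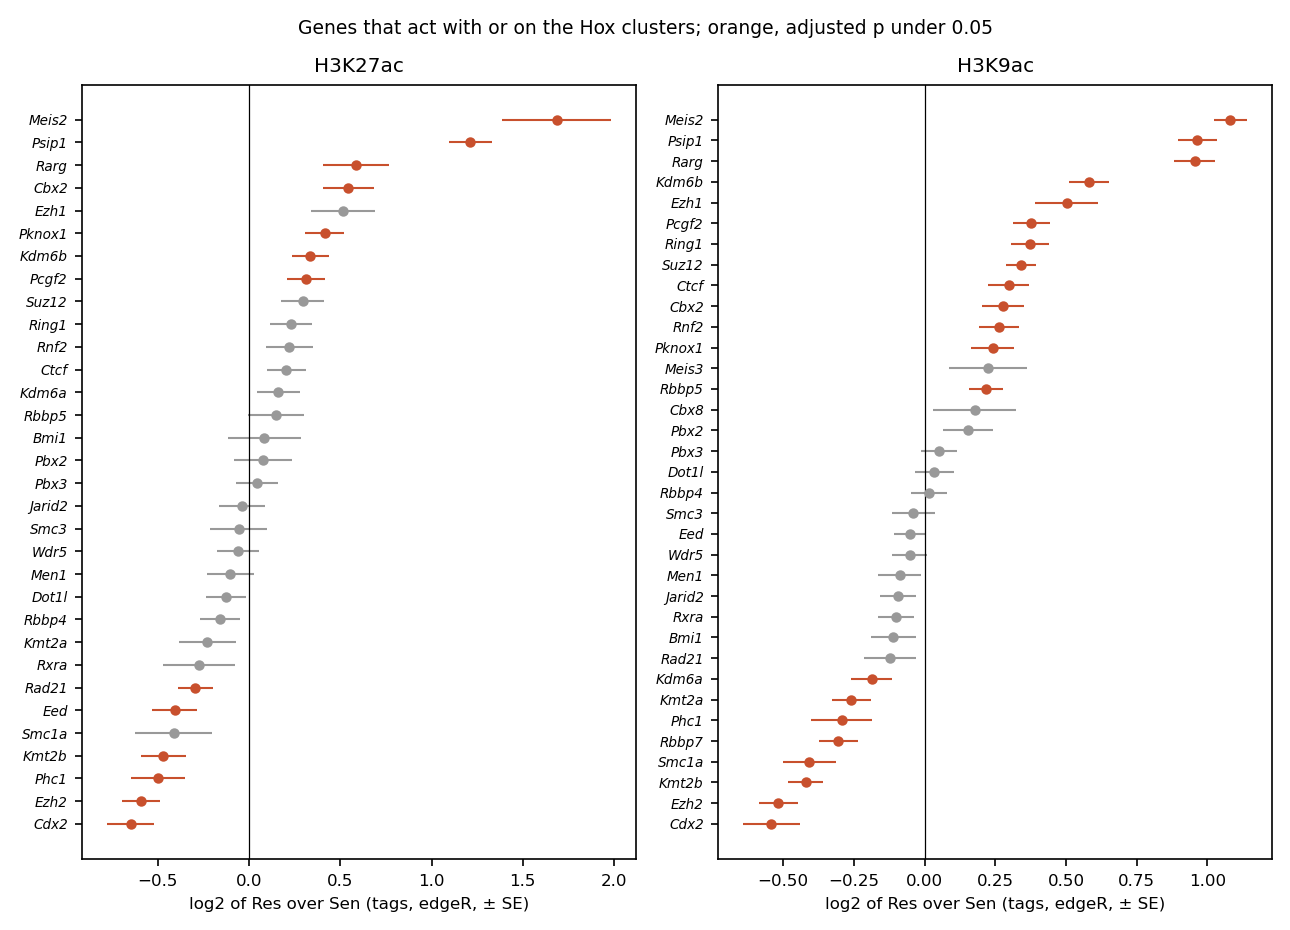
Log2 change of tags in Res over Sen (horizontal axis) with its SE for each tested gene of the list (vertical axis), H3K27ac left and H3K9ac right; orange points have an edgeR adjusted p under 0.05. Meis2 and Psip1 stand highest in both marks, between 0.96 and 1.69, and Cdx2 and Ezh2 lowest, between -0.65 and -0.52.

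In Res_shFabp7 against Res_Ctrl few of these genes differed. In H3K27ac edgeR called 0 higher and 0 lower of 33 at an adjusted p of 0.05, where over 9605 genes 0.75% were higher and 1.17% lower. At an unadjusted p under 0.05, 2 were higher and 1 lower of 33. The share of all genes at that unadjusted threshold was not counted, so nothing is read from it. The replicate number was also fitted as a block, taken to pair the libraries by a rule on correlations given below and not by a label. In that fit 1 of 33 was higher, against 206 of 9605 genes. In that fit 0 of 33 were lower, against 292 of 9605. The higher gene was Kdm6a, a relative of Kdm6b that removes the same mark, at 0.43 ± 0.10 (edgeR adjusted p = 0.031). DESeq2 called Kdm6a as well (DESeq2 adjusted p = 0.046), where 136 of 9605 genes were higher and 156 lower. In H3K9ac 0 were higher and 2 lower of 35, where over 9617 genes 2.23% were higher and 3.57% lower. Meis3, another relative of Meis1, had 18.1, 21.9 and 18.5 H3K9ac CPM in Res_shFabp7 libraries and 36.4, 40.2 and 34.4 in Res_Ctrl libraries. Its log2 change was -0.91 ± 0.14 with an edgeR adjusted p of 0.0021, and the groups did not overlap. In H3K27ac Meis3 had peaks in 3 of 3 Res_shFabp7 libraries and 1 of 3 Res_Ctrl libraries, so that it was not among the genes tested in that mark. When only peaks with a score of at least 100 were kept, Meis3 was not among the genes tested in H3K9ac either. Meis2 had a log2 change of -0.21 ± 0.06 (edgeR adjusted p = 0.044), a call lost with the replicate block (0.064) and without any one of 5 of the 6 libraries.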

How the data were processed

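ChIP-seq peak lists of 24 libraries, 3 for each of 2 marks and 4 groups, were used. Bowtie 1.1.2, MACS 1.4.2 and mm10 are named in the submitters' processing notes; settings are not given in the sources used here, nor is whether peak starts count from 0 or 1. The deposited tag counts are whole reads per peak, not scaled, per the file headers; the deposited score was read as −10 log10 of p, since its lowest value is 50, and the deposited fold is a ratio of ChIP over input. Peaks were called by the authors in each library separately. Tags outside peaks are unknown. 1 Hox gene with its peaks, and 3 genes of the lists, are not reported here.

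Peaks were assigned to a Hox cluster within 5 kb and to a gene that it overlapped or lay within 1 kb of. Peaks of the 6 libraries of a comparison were merged where they overlapped, and regions with a peak in all 6 were fitted with edgeR 4.0.16 (TMM, quasi-likelihood, adjusted p of 0.05; R 4.3.3), checked on simulated data; a gene took the region with the highest mean scaled tags within 1 kb of an annotated end. Covered bases were compared with an exact permutation test (SciPy 1.17.1). DESeq2 1.42.0, other scalings, a score of 100, equal numbers of peaks, other merging and windows, a replicate block and the leaving out of each library were alternatives. Replicate numbers were taken to pair libraries where all 3 same-numbered correlations of deviations exceeded 0.1, which held for Res_shFabp7 against Res_Ctrl in H3K27ac (0.358, 0.128 and 0.232). The rule was chosen here and does not establish a pairing. Number 1 alone correlated as much in H3K27ac of Res_Ctrl against Res (0.363), which did not meet the rule. The genes, lists and rules were chosen with earlier results of these data known. Named members of the 47-gene list are up to 4 with the largest called changes per mark and comparison, and those singled out by presence (Meis1) or by an alternative (Kdm6a) were chosen after their values were seen.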

Additional observations from a re-analysis of the deposited data

How the results depend on the processing

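The Hox results rest on called peaks, so weak signal below the caller's limit is unseen. The number of Hox genes with a peak moved from 3 to 6 within 2500 bases. With a score of 100 or more, or with equal numbers of peaks, the described Hox genes with a Res peak became 0 in each mark, against 2 in H3K27ac and 3 in H3K9ac. Leaving out 1 library in turn gave 1 to 2 and 2 to 3 such genes. It gave 0 to 1 gained or lost regions at these genes in H3K27ac and 0 to 2 in H3K9ac, both in Res against Sen and in Res_Ctrl against Res. The replicate block left the HoxA differences at 1990 and 1200 bases (sign-flip exact p = 1 and 0.5). Given the libraries without a HoxA peak, neither p-value could have been lower. The replicate number also did not meet the pairing rule in Res against Sen. No Hox region could be fitted under any setting.

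Of the 47-gene list in Res against Sen, leaving out 1 library gave 3 to 8 higher and 2 to 7 lower in H3K27ac. Over all genes it gave 810 to 1530 higher and 519 to 1221 lower. Tags per called base gave 0 higher and 0 lower of the list in H3K27ac and 18 higher and 0 lower of 35 in H3K9ac. Over all genes 22 were higher and 95 lower of 8910, and 5040 higher and 83 lower of 9783. The median of all genes moved to -0.12 and 0.25, against -0.03 and -0.02, and the sign turned in H3K9ac. In Res_shFabp7 against Res_Ctrl that setting gave 10 lower of 33 in H3K27ac and 6 lower of 35 in H3K9ac. Over all genes 2895 of 9605 and 1916 of 9617 were lower, so these counts are near the share of all genes. The medians of all genes were -0.22 and -0.19, against 0.03 and 0.02, so that both signs turned. The list's own median turned too, to -0.17 against 0.12 in H3K27ac and -0.13 against 0.02 in H3K9ac here, and to -0.08 against 0.06 in H3K27ac of Res against Sen. In Res_shFabp7 against Res_Ctrl RLE scaling, DESeq2 and the replicate block gave 1 higher of 33 in H3K27ac, where 81, 136 and 206 of 9605 genes were higher. In H3K9ac the replicate block gave 1 lower of 35, Meis3, where 277 of 9617 genes were lower. A score of 100 or more gave 1 lower of 33, Meis2, where 320 of 8740 genes were lower. Meis3 was not among those 33. Leaving out 1 library gave 0 to 1 higher of the list in each mark and 1 to 2 lower in H3K9ac. Over all genes 13 to 127 were higher in H3K27ac, and 45 to 339 were higher and 130 to 382 lower in H3K9ac. The cause of these moves was not tested.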
